A study of Mus musculus with 6 samples.

Results

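The genes described here encode the machinery by which TNF and its relatives can kill a cell. They are 9 genes out of the 21825 in the deposited table, chosen by gene symbol: the receptor Fas, its ligand Fasl and the TRAIL receptor Tnfrsf10b, the caspase-8 module Fadd, Casp8 and Cflar, and the necroptosis module Ripk1, Ripk3 and Mlkl. All 9 were present in the table and all passed the filter on low counts that left 15719 genes to test. The cells were group 2 innate lymphoid cells (ILC2s), lymphocytes without a rearranged antigen receptor, sorted from lungs of BALB/c mice that were 6 weeks old, after 3 intraperitoneal injections of recombinant IL-33, each of 1 µg. They were cultured for 48 h either with recombinant TNFa at 40 ng/mL (3 libraries, numbered 4 to 6) or with PBS as vehicle (3 libraries, numbered 1 to 3). Both groups had been exposed to IL-33 in the animal and received IL-2 and IL-7 at 10 ng/mL each in culture. The PBS cells are thus cytokine-exposed cells, and the series has no group of unexposed cells to compare them with. Whether the libraries stem from separate cultures or animals is not in the labels; p-values thus reflect spread among these 6 libraries alone, and that spread may be technical.

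As background, ligand binding to Fas or to the TRAIL receptor brings the adaptor FADD and the protease caspase-8 together in a complex that starts apoptosis. TNF binding to its type 1 receptor first builds a complex around the kinase RIPK1 that drives NF-kB, and only when that complex is disturbed do RIPK1, FADD and caspase-8 form a killing complex. c-FLIP, the product of Cflar, pairs with caspase-8 and restrains it, while caspase-8 itself cuts RIPK1 and RIPK3. Where caspase-8 activity is blocked, RIPK3 phosphorylates MLKL, which then breaks the plasma membrane in the lytic death called necroptosis.

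The 250 bases before the RefSeq start site are shown for a pair of these genes (GRCm38.p6, which shares its coordinates with mm10), because one is the gene whose TNFa and PBS libraries did not overlap and the other is the death receptor itself, whose matches show what the search finds. Letters in capitals mark matches to 3 motifs that were searched on both strands in 8 of the genes, 9 windows in all.
Ripk3, chr14:55788858-55789107, minus strand: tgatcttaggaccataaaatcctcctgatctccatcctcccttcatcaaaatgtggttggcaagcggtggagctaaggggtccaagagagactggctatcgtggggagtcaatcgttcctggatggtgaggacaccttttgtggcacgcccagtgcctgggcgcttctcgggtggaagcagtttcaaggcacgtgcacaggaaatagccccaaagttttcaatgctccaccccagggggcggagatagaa
Fas, chr19:34290409-34290658, plus strand: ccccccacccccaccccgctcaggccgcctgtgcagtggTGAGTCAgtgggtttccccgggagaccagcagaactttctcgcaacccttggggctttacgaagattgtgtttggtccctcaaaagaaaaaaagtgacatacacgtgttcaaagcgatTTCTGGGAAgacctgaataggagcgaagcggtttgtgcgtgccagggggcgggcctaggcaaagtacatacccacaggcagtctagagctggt
The motifs were the NF-kB consensus, the STAT-type motif TTCNNNGAA and the AP-1 motif TGANTCA, and no match of one overlapped a match of another. The Ripk3 window held no match. The Fas window held TGAGTCA at positions -211 to -205 and TTCTGGGAA at positions -93 to -85, counted back from the start site. Apart from Fas, a match occurred only in the second of the windows of Ripk1, where TTCCCGGAA stood at -108 to -100 and again at -11 to -3. Tnfrsf10b had no window. The Casp8 window, 58802252 to 58802501, lies inside the annotated gene, which starts at 58795374. For Mlkl, bases just after the start site were not found in its annotated transcripts. The lack of a match in these windows is therefore less certain. Of all 32851 mouse windows of this length, 7.25% held the NF-kB consensus, 7.02% TTCNNNGAA and 6.75% TGANTCA. A match is a description of letters and does not show that a factor binds.

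Ripk3 was the member with the clearest difference between the groups, and it was lower with TNFa. Levels are given as CPM, which are counts relative to library size. By the quasi-likelihood test of edgeR, with p-values adjusted by Benjamini-Hochberg over all 15719 genes, 0 of the 9 genes passed the threshold of 0.05, where 0.102% of all genes passed, 0.0891% higher and 0.0127% lower. At an unadjusted p under 0.05 there was 1 member, Ripk3, on the lower side, and 8.31% of all tested genes lay under that level, 3.68% higher and 4.63% lower. DESeq2, run on the same genes, called 1 of the 9, again Ripk3, and 1.40% of all genes. Of the 9 genes, 6 had a higher fitted mean with TNFa and 3 a lower one, with a median log2 fold change of 0.12 against 0.0047 over all tested genes. Because these are bulk libraries, fewer cells of a type and less RNA per cell cannot be told apart.

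**Figure D1:**
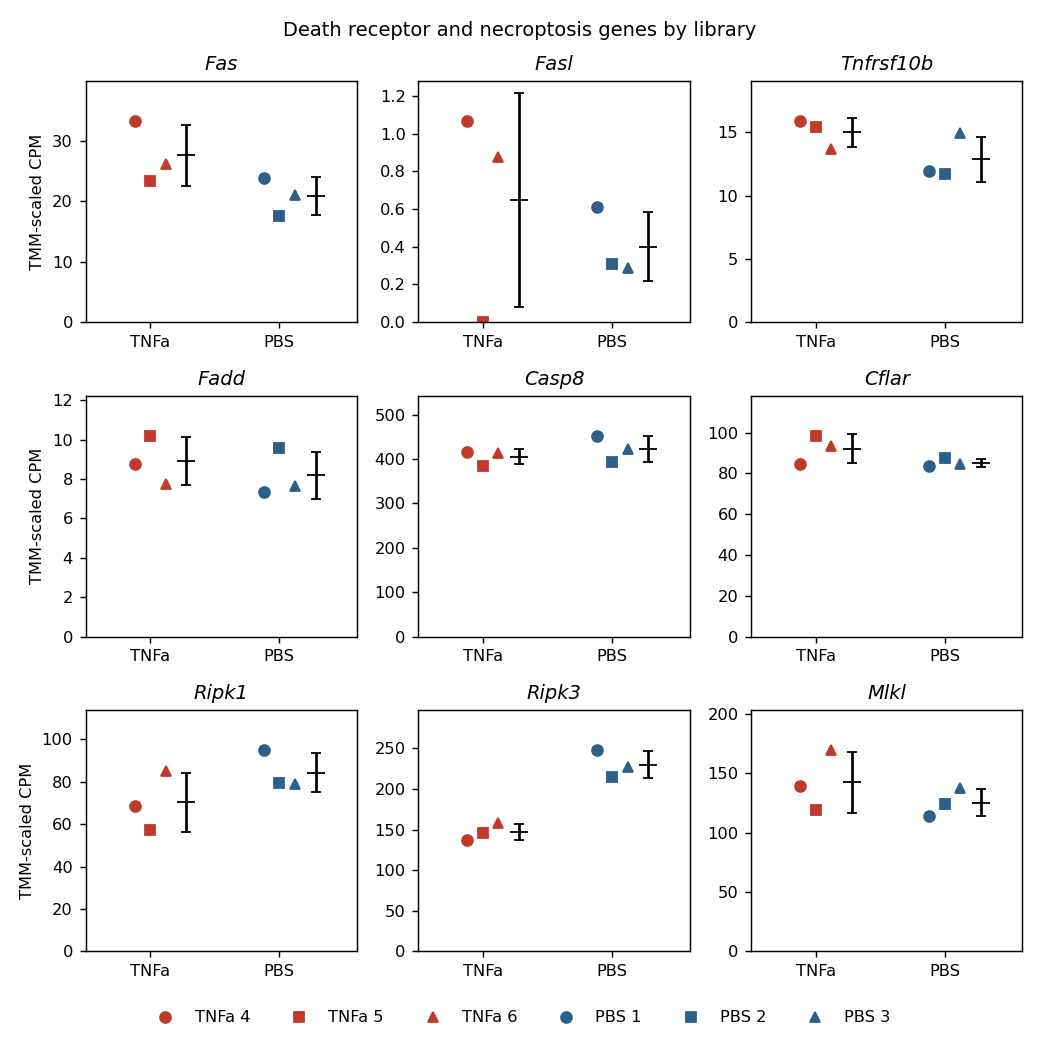
Level of each gene in every library as TMM-scaled CPM (y axis from 0), TNFa at the left and PBS at the right of each panel, with mean and SD (n = 3) as a black bar. The 3 Ripk3 values with TNFa lie between 138 and 158 CPM, all under the lowest PBS value of 214 CPM, and in the other 8 panels the groups overlap.

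The libraries themselves were of similar depth, with 25089415 to 32487004 counts with TNFa and 29185442 to 30908757 with PBS. TNFa replicate 5 stood apart, with a score of 90.4 on the first principal component (35.6% of the variance), against -22.6 to -14.5 for the others, and with 4.60% of its counts in ribosomal protein genes against 2.86% to 3.19% elsewhere. The label of PBS replicate 2 marks that library as a repeat, with no further word on what was repeated. ILC2 markers were abundant in every library, the 15 listed genes summing to 12446 to 13396 CPM with TNFa and 11733 to 13096 CPM with PBS, led by Il5 and Il2ra, both with higher means with TNFa. The mast cell and basophil list was also high, at 1370 to 1556 CPM with TNFa and 1323 to 1461 CPM with PBS, led by Tpsab1 and Cma1. Thy1, a surface marker commonly used to sort ILC2s, was low, at 3.35 ± 1.05 CPM with TNFa and 2.76 ± 0.650 CPM with PBS (SD, n = 3 each).

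Among the receptors and their ligand, Fas had a higher mean with TNFa but did not pass the test. Fas (mm10, chromosome 19, 34290659 to 34327770, plus strand) is the receptor through which Fas ligand starts apoptosis. It stood at 33.2, 23.3 and 26.2 CPM in TNFa replicates 4, 5 and 6, against 23.9, 17.6 and 21.1 CPM in PBS replicates 1, 2 and 3. Only the lowest TNFa library, replicate 5, lay under the highest PBS library, replicate 1, so the groups overlapped by this pair alone. The fitted change was 1.32-fold with a 95% interval of 0.983 to 1.78 (edgeR, adjusted p = 0.632). Leaving out TNFa replicate 5 gave a log2 fold change of 0.51 (edgeR, unadjusted p = 0.0193, adjusted p = 0.341), a setting where 10.8% of all tested genes had an unadjusted p under 0.05. The log2 fold change was 0.24 without TNFa replicate 4 and 0.29 without PBS replicate 2 (edgeR, unadjusted p = 0.264 and 0.205). The adjusted p ranged from 0.341 to 0.998 over the 10 alternatives.

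Fasl, the ligand that killer lymphocytes use to engage Fas, was close to the limit of detection (chromosome 1, 161780689 to 161788495, minus strand). The deposited estimated counts were 27, 0 and 29 in TNFa replicates 4, 5 and 6, against 18, 9 and 9 in PBS replicates 1, 2 and 3. The TNFa libraries thus held both the highest values and the only zero, where a count of 0 allows up to 0.112 CPM. Such limits cover counting error only. The other TNFa libraries, replicates 4 and 6, stood at 1.07 and 0.877 CPM, further from that 0 than counting error covers. The fitted change of 1.61-fold had an interval of 0.312 to 8.32 (edgeR, adjusted p = 0.899), so no difference was detected with this spread between libraries.

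Tnfrsf10b encodes the mouse receptor for the ligand TRAIL (chromosome 14, 69767472 to 69784411, plus strand). It was measured at 15.9, 15.4 and 13.7 CPM in TNFa replicates 4, 5 and 6, against 11.9, 11.7 and 14.9 CPM in PBS replicates 1, 2 and 3. TNFa replicate 6 lay under PBS replicate 3, and the other libraries were separated. The fitted change was 1.16-fold, interval 0.864 to 1.57 (edgeR, adjusted p = 0.804).

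No gene of the caspase-8 module passed the test, and all 3 overlapped between the groups. The intervals of Casp8 and Cflar were the narrowest of the genes that overlapped. Casp8 (chromosome 1, 58795374 to 58847503, plus strand) encodes the initiator protease of death receptor signalling. It had 416, 385 and 414 CPM in TNFa replicates 4, 5 and 6, against 452, 393 and 423 CPM in PBS replicates 1, 2 and 3. The ranges interleaved, and the fitted change was 0.958-fold with an interval of 0.823 to 1.12 (edgeR, adjusted p = 0.902). Cflar lies on the same strand of chromosome 1 (58711508 to 58758884), 36489 bases before Casp8. It encodes c-FLIP, a relative of caspase-8 without protease activity. Its values were 84.5, 98.4 and 93.5 CPM in TNFa replicates 4, 5 and 6, against 83.8, 87.5 and 84.5 CPM in PBS replicates 1, 2 and 3. TNFa replicate 4 lay among the PBS libraries, and the fitted change was 1.08-fold, interval 0.912 to 1.28 (edgeR, adjusted p = 0.832).

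Fadd, the adaptor that links death receptors to caspase-8, was low in both groups (chromosome 7, 144577318 to 144582463, minus strand). It had 8.79, 10.2 and 7.76 CPM in TNFa replicates 4, 5 and 6, against 7.36, 9.57 and 7.67 CPM in PBS replicates 1, 2 and 3. The groups overlapped throughout, and the change was 1.09-fold with an interval of 0.754 to 1.57 (edgeR, adjusted p = 0.926). An antisense gene, Faddos, shares exon sequence with Fadd, and it was assigned at most 0.244 CPM in any library. Whether counting used strand is not given in the sources used here, so reads of the pair cannot be told apart.

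In the necroptosis module, Ripk3 was lower in every TNFa library, while its partners Ripk1 and Mlkl overlapped between the groups and had means on opposite sides. Ripk3 (chromosome 14, 55784995 to 55788865, minus strand) encodes the kinase that activates MLKL. It stood at 138, 146 and 158 CPM in TNFa replicates 4, 5 and 6, against 248, 214 and 227 CPM in PBS replicates 1, 2 and 3. The groups were 56.4 CPM apart at their nearest libraries, more than the whole range within either group. Ripk3 was the 1 member of 9 whose groups did not overlap, where 15.2% of all tested genes had none, 6.83% in the higher and 8.35% in the lower direction.

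The fitted Ripk3 level with TNFa was 0.640 times that with PBS, with an interval of 0.543 to 0.756 (log2 fold change -0.64 ± 0.11, SE). Its unadjusted p of 0.000142 was the 24th smallest of all tested genes, but the adjusted p was 0.0879 and missed the threshold of 0.05. Among the 8748 tested genes with a mean of at least 10 CPM, 87 had a log2 fold change as low or lower, or 0.995%. Ripk3 passed without TNFa replicate 5 (adjusted p = 0.0278, log2 fold change -0.64), with a filter at a mean of 5 CPM (adjusted p = 0.0463, log2 fold change -0.62) and in DESeq2 (adjusted p = 4.18e-05, log2 fold change -0.63). When each of the other 5 libraries was left out in turn it did not pass, with adjusted p from 0.246 to 0.522, and its log2 fold change stayed between -0.70 and -0.58 in all 10 alternatives. The direction and size of the Ripk3 difference were therefore similar in each setting, and the call was not.

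**Figure D2:**
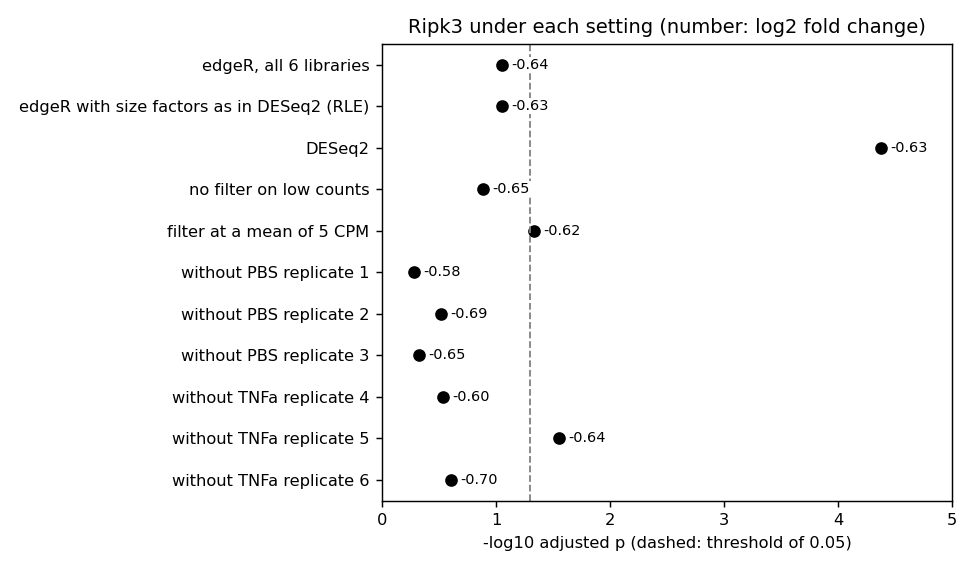
Ripk3 in edgeR with all 6 libraries and in 10 alternatives, as -log10 of the adjusted p (x axis), with the log2 fold change of TNFa over PBS printed beside each point. The dashed line is the threshold of 0.05. The values lie between -0.70 and -0.58 everywhere, and 3 settings pass.

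Some markers of ILC2s and of other lymphocytes also had lower means with TNFa, as Ripk3 had. Of the 15 ILC2 markers tested, 7 were lower and 2 higher with no overlap between the groups, where 8.35% and 6.83% of all tested genes were, and 1 passed the test. That gene, the costimulatory receptor gene Icos, fell to 517 ± 33.1 CPM with TNFa, against 888 ± 69.0 CPM with PBS (SD, n = 3 each; edgeR, adjusted p = 0.0363). The other 6 lower ones, Gata3, Rora, Il1rl1, Il17rb, Klrg1 and Arg1, did not pass, Gata3, the lineage-defining transcription factor gene, averaging 705 ± 52.1 CPM with TNFa and 978 ± 71.8 CPM with PBS (SD, n = 3 each; edgeR, adjusted p = 0.199). No NK, ILC1, T or B cell marker passed the test. The 8 listed NK and ILC1 markers summed to 94.5 to 118 CPM with TNFa and 184 to 226 CPM with PBS, most of it from the granzyme genes Gzmb, at 87.5 ± 10.5 CPM with TNFa and 153 ± 12.3 CPM with PBS, and Gzma, at 13.4 ± 5.93 CPM with TNFa and 50.4 ± 15.0 CPM with PBS (SD, n = 3 each). Both granzyme genes missed the threshold (edgeR, adjusted p = 0.0627 for Gzmb and 0.0879 for Gzma). The NK genes did not share one direction. Ncr1 averaged 2.98 ± 0.776 CPM with TNFa and 1.27 ± 0.475 CPM with PBS (SD, n = 3 each; edgeR, adjusted p = 0.483), with no overlap. Klrb1c and Eomes were too low to be tested, and their SDs were larger than their means. They averaged 0.0496 ± 0.0616 and 0.119 ± 0.205 CPM with TNFa and 0.218 ± 0.378 and 0.418 ± 0.470 CPM with PBS (SD, n = 3 each). The 8 T cell markers summed to 94.1 to 98.9 CPM with TNFa and 112 to 125 CPM with PBS, led by Cd3g and Lck, and 4 of the 5 B cell markers, led by Cd79b and Ms4a1, to 13.8 to 16.5 CPM with TNFa and 20.2 to 20.6 CPM with PBS. Il22, a cytokine gene of some other innate lymphoid cells, averaged 30.8 ± 13.0 CPM with TNFa and 8.66 ± 1.69 CPM with PBS (SD, n = 3 each), the opposite direction to Ripk3, and did not pass the threshold (edgeR, adjusted p = 0.0785). The part of these marker differences in the Ripk3 difference was not tested.

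The summed levels of the following 4 lists overlapped between the groups. Myeloid markers, led by Chil3 and Ly6c2, summed to 32.1 to 60.6 CPM with TNFa and 40.5 to 86.6 CPM with PBS. The eosinophil list, led by Prg2 and Ccr3, summed to 3.66 to 55.4 CPM with TNFa and 4.36 to 7.62 CPM with PBS. Epithelial, endothelial and stromal markers, led by Pecam1 and Scgb1a1, reached 143 to 198 CPM with TNFa and 119 to 153 CPM with PBS, and the erythroid list, led by Hba-a1 and Hba-a2, at most 2.71 CPM with TNFa and 3.68 CPM with PBS. Without overlap, 1 of 8 tested myeloid, 1 of 4 epithelial, endothelial and stromal and 1 of 2 erythroid genes were lower with TNFa. These were S100a9, Epcam and Hba-a1, with 0 higher in the 4 lists, where 8.35% of all tested genes were lower and 6.83% higher. Epcam averaged 14.2 ± 1.06 CPM with TNFa and 27.4 ± 1.59 CPM with PBS (SD, n = 3 each). It missed the threshold (edgeR, adjusted p = 0.0879). S100a9 and Hba-a1 averaged 0.187 and 0.791 CPM with TNFa and 0.787 and 1.44 CPM with PBS.

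Ripk1 (chromosome 13, 34002363 to 34037147, plus strand) encodes the kinase and scaffold that TNF receptor 1 recruits. It was measured at 68.8, 57.3 and 84.9 CPM in TNFa replicates 4, 5 and 6, against 94.8, 79.3 and 78.9 CPM in PBS replicates 1, 2 and 3. Both TNFa replicates 4 and 5 lay under every PBS library, and TNFa replicate 6 lay above a pair of them. The fitted change was 0.835-fold, interval 0.653 to 1.07 (edgeR, adjusted p = 0.721). The exons of Ripk1 overlap those of Serpinb6a on the opposite strand, itself at 94.3 CPM with TNFa on average, and of the pseudogene Gm17084, so the Ripk1 values carry that uncertainty.

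Mlkl encodes the pseudokinase that carries out necroptosis (chromosome 8, 111311797 to 111338177, minus strand). It stood at 139, 119 and 169 CPM in TNFa replicates 4, 5 and 6, against 114, 124 and 137 CPM in PBS replicates 1, 2 and 3. TNFa replicate 5 lay among the PBS libraries and the other TNFa libraries above them all. The fitted change was 1.14-fold with an interval of 0.911 to 1.42 (edgeR, adjusted p = 0.774), and the log2 fold change was 0.30 without TNFa replicate 5 and 0.038 without TNFa replicate 6, against 0.18 with all libraries.

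**Figure D3:**
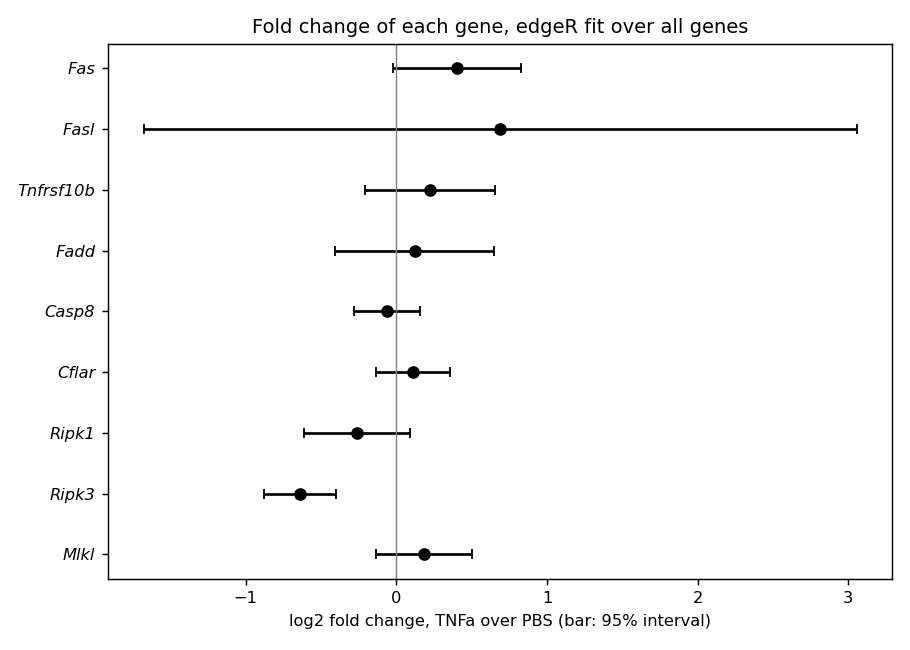
Log2 fold change of TNFa over PBS for each gene in the edgeR fit across all genes (points) with its 95% interval (bars). The interval of Ripk3, -0.88 to -0.40, is the only one that excludes 0, and that of Fasl, -1.68 to 3.06, is the widest.

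Ratios taken within a library compare neighbouring parts of the machinery without the scaling between libraries. The level of Ripk3 per kb of exon, relative to that of Casp8, the protease that cuts its product, was 0.418, 0.477 and 0.482 in TNFa replicates 4, 5 and 6, against 0.691, 0.690 and 0.678 in PBS replicates 1, 2 and 3. All 3 PBS values lay close together and above every TNFa value. The ratio with TNFa was 0.668 times that with PBS (two-sided exact permutation test, p = 0.1, the smallest that 3 against 3 libraries allow; 0.15 adjusted over the 3 ratios computed).

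Mlkl relative to Ripk3, the substrate against its kinase, was 1.00, 0.812 and 1.07 in TNFa replicates 4, 5 and 6, against 0.459, 0.577 and 0.602 in PBS replicates 1, 2 and 3. The groups did not overlap, and the ratio was 1.76 times as high with TNFa (two-sided exact permutation test, p = 0.1, adjusted p = 0.15). Cflar relative to Casp8, the restraint against the protease, averaged 0.0521 ± 0.00597 with TNFa and 0.0463 ± 0.00433 with PBS (SD, n = 3 each) and overlapped (two-sided exact permutation test, p = 0.2, adjusted p = 0.2). None of the 3 ratios could pass a threshold of 0.05 in this design, and the first and second share the Ripk3 values.

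**Figure D4:**
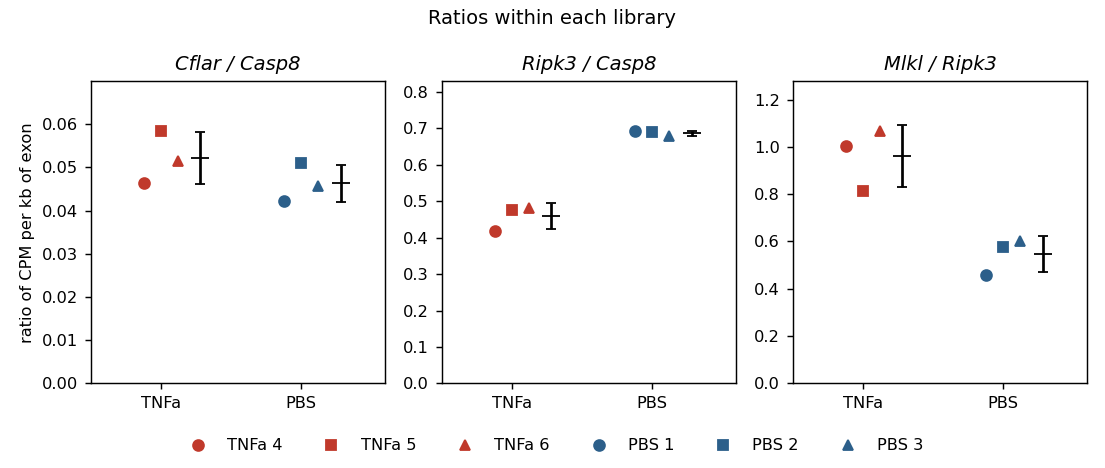
Ratio of levels per kb of exon within each library (y axes from 0), TNFa left of PBS, with mean and SD (n = 3). The Ripk3/Casp8 values lie between 0.418 and 0.482 with TNFa and between 0.678 and 0.691 with PBS, and the Mlkl/Ripk3 values between 0.812 and 1.07 with TNFa and between 0.459 and 0.602 with PBS.

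Levels of different genes were compared per kb of annotated exon. In these terms Casp8 was the highest of the 9, at 140 ± 5.87 CPM per kb with TNFa and 146 ± 10.3 with PBS (SD, n = 3 each), and above 97.1% of tested genes on the mean over all 6 libraries. Ripk3 followed at 64.2 ± 4.49 CPM per kb with TNFa and 100 ± 7.29 with PBS, and Mlkl at 61.8 ± 11.0 with TNFa and 54.4 ± 5.04 with PBS. With PBS all Ripk3 libraries lay above all Mlkl libraries on this scale, and with TNFa the libraries of the pair overlapped. On the mean over all 6 libraries Ripk3 was above 94.7% and Mlkl above 92.4% of tested genes.

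The remaining genes formed a lower tier. Fas had 13.4 ± 2.47 CPM per kb with TNFa and 10.1 ± 1.53 with PBS, Ripk1 8.43 ± 1.67 with TNFa and 10.1 ± 1.09 with PBS, and Cflar 7.27 ± 0.559 with TNFa and 6.73 ± 0.156 with PBS (SD, n = 3 each). Fas and Ripk1 overlapped with PBS, and Ripk1 and Cflar overlapped with TNFa. Tnfrsf10b, at 2.75 ± 0.212 CPM per kb with TNFa and 2.36 ± 0.328 with PBS, overlapped with Fadd, at 2.28 ± 0.313 with TNFa and 2.10 ± 0.307 with PBS, in both groups. Fasl was last, at 0.335 ± 0.294 CPM per kb with TNFa and 0.207 ± 0.0949 with PBS.

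The choice of length moves Cflar, whose annotated exons add up to 12.7 kb against a median of 2.59 kb for its coding transcripts. Per kb of coding transcript, a scale added after the values were seen, Cflar ranked 4 of 9, with 35.6 ± 2.74 CPM per kb with TNFa and 33.0 ± 0.763 with PBS, above all libraries of Ripk1 in both groups. On that scale the Casp8 level was 6.04 times that of Cflar with TNFa and 6.81 times with PBS, against 19.2 and 21.7 times on the exon scale. The places of Casp8, Ripk3, Mlkl, Tnfrsf10b, Fadd and Fasl were the same on both scales and in both groups.

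**Figure D5:**
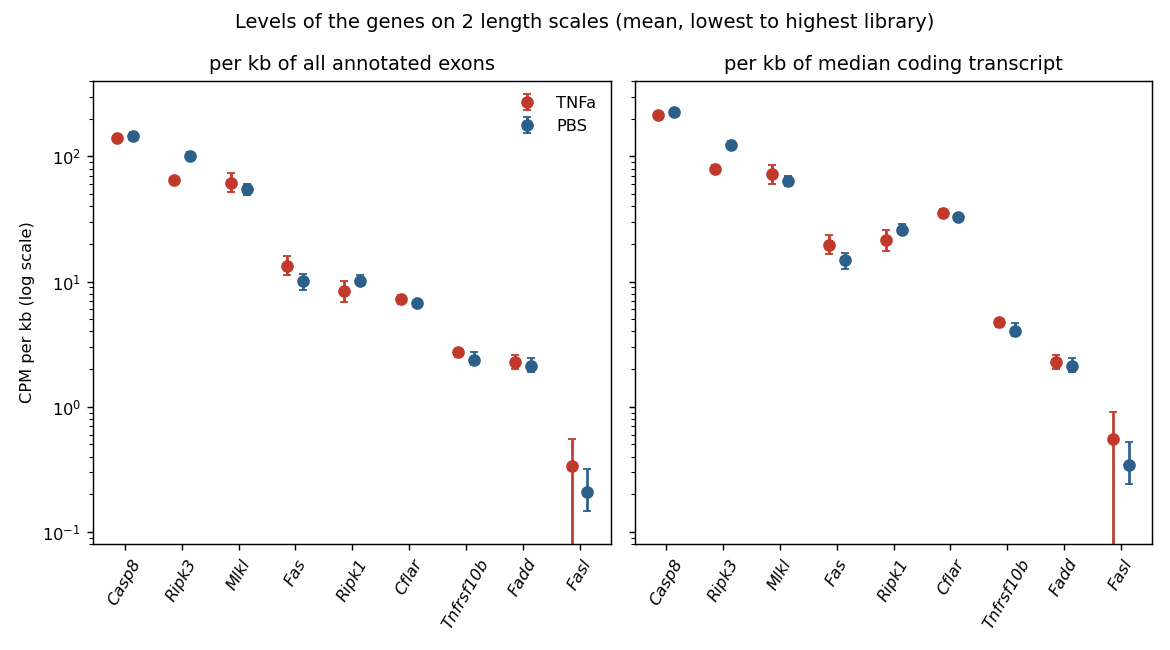
Mean level of each gene in CPM per kb (log axis), per kb of all annotated exons at the left and of the median coding transcript at the right, with bars from the lowest to the highest of 3 libraries. The TNFa bar of Fasl runs off the axis because 1 library is at 0, and Cflar has rank 6 in the left panel and rank 4 in the right one.

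The genes most like 3 of the members in pattern were found as the tested genes of at least 10 CPM with the smallest root mean square difference in log2 CPM over the 6 libraries, after each gene's own mean was subtracted. For Ripk3 these were Ppm1m, Suox and Arg1, at differences of 0.077, 0.077 and 0.083, where the spread of Ripk3 itself was 0.33. Arg1, the arginase that activated ILC2s express, stood at 426 ± 32.2 CPM with TNFa and 625 ± 23.5 CPM with PBS (SD, n = 3 each; edgeR, adjusted p = 0.101). For Fas they were Eng, Tbc1d19 and Klhl12 (0.075, 0.080 and 0.089), and for Cflar, whose own spread was 0.087, Chid1, Fyb and Dnajc3 (0.028, 0.029 and 0.032). The neighbours were picked on the values of these same 6 libraries, so those of Ripk3 share its group difference by selection. None of these 9 neighbours passed in edgeR, and 4 had an unadjusted p under 0.05, where 8.31% of all tested genes did. DESeq2 called 3, all from the Ripk3 group, and 1.4% of all tested genes. Because of the selection, these counts are no separate result.

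The complex that forms on TNF receptor 1 holds RIPK1 in check. Of 25 genes listed for it and around it, TNF receptor 2 among them, 1 passed in edgeR, where 0.102% of all tested genes did. Birc3, the ubiquitin ligase cIAP2 that marks RIPK1, rose to 117 ± 10.9 CPM with TNFa, against 62.9 ± 7.18 CPM with PBS (SD, n = 3 each; log2 fold change 0.90 ± 0.13, SE; edgeR, adjusted p = 0.043). That call was lost without a filter on low counts (adjusted p = 0.0679) and when any library other than TNFa replicate 5 was left out (0.175 to 0.371). It held without TNFa replicate 5 (adjusted p = 0.00883), and the range over all alternatives was 8.61e-08 to 0.371. DESeq2 called 2 of the 25, Birc3 and Tnfaip3, and 1.4% of all tested genes. Of the 25, 14 had higher and 11 lower fitted means, with a median log2 fold change of 0.049. Tnfaip3, the ubiquitin-editing enzyme A20, had a log2 fold change of 1.21 ± 0.31 (SE; edgeR, adjusted p = 0.293). Its groups overlapped, with 59.3, 24.0 and 55.3 CPM in TNFa replicates 4, 5 and 6, against 17.0, 18.0 and 24.9 CPM in PBS replicates 1, 2 and 3. Per kb of exon the most abundant were the kinase Mapkapk2, which phosphorylates RIPK1, at 85.1 CPM per kb with TNFa and 75.3 with PBS, and TNF receptor 2, Tnfrsf1b, at 58.6 with TNFa and 75.2 with PBS.

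Other death receptors and ligands were measured for 11 of 15 listed genes, 10 of them tested. In edgeR 1 passed, where 0.102% of all tested genes did. Lta, which encodes lymphotoxin alpha, a ligand of the TNF receptors, rose to 205 ± 23.6 CPM with TNFa, against 71.6 ± 5.61 CPM with PBS (SD, n = 3 each; edgeR, adjusted p = 0.0022). Only without PBS replicate 1 did Lta miss the threshold (adjusted p = 0.0827; 9.68e-26 to 0.0827 over the 10 alternatives). Tnfsf10, the gene of TRAIL, which binds the product of Tnfrsf10b, stood at 43.2 ± 3.99 CPM with TNFa and 31.5 ± 1.65 CPM with PBS without overlap (SD, n = 3 each; edgeR, adjusted p = 0.393). Tnfrsf25, the death receptor DR3, was at 39.5 CPM per kb with TNFa and 45.3 with PBS. The median log2 fold change of the 10 was 0.24, with 6 higher and 4 lower.

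Downstream, none of the 16 tested caspase and executioner genes, of 18 listed, passed in edgeR. DESeq2 called 2, Casp4 and Htra2, where it called 1.4% of all tested genes. The log2 fold changes of the 16 had a median of 0.0013, 8 being higher and 8 lower. At an unadjusted p under 0.05 in edgeR there were 3, all higher: Casp1, Casp4 and Htra2. Of all tested genes, 3.68% were higher at that level. Htra2, a mitochondrial protease released during apoptosis, was at 91.4 ± 2.62 CPM with TNFa and 65.6 ± 7.46 CPM with PBS (SD, n = 3 each; edgeR, adjusted p = 0.293). Casp4, the intracellular sensor of bacterial lipopolysaccharide, was at 15.5 ± 1.49 CPM with TNFa and 9.24 ± 1.55 CPM with PBS (adjusted p = 0.356). On the mean over all 6 libraries, Cycs and Casp1 were the most abundant per kb, at 82.9 and 43.7 CPM per kb with TNFa and 73.6 and 32.6 with PBS.

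Among 20 tested genes of the wider necroptosis pathway none passed in edgeR or in DESeq2, and the median log2 fold change was 0.035. By edgeR, 3 had an unadjusted p under 0.05, all higher, where 3.68% of all tested genes were higher at that level. Zbp1, a nucleic acid sensor that can engage RIPK3 without TNF, had 104 ± 40.2 CPM with TNFa and 65.9 ± 4.50 CPM with PBS (SD, n = 3 each; edgeR, adjusted p = 0.453), and its groups did not overlap. The chaperone genes Hsp90aa1 and Hsp90ab1, whose products stabilise RIPK3, had log2 fold changes of 0.41 ± 0.16 and 0.27 ± 0.12 (SE; adjusted p = 0.509 and 0.564) and were the most abundant of the list, at 276 and 685 CPM per kb with TNFa and 208 and 567 with PBS.

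Regulators of the death receptor complex and genes of pyroptosis, the lytic death driven by gasdermins, gave no call in edgeR either, and in DESeq2 Casp4 alone was called among them. Of 16 regulators, 6 were higher and 10 lower (median log2 fold change -0.09). By edgeR, 1 was lower at an unadjusted p under 0.05, where 4.63% of all tested genes were. It was Pea15a, whose product binds FADD and caspase-8, at 80.0 ± 10.3 CPM with TNFa and 100 ± 5.98 CPM with PBS (SD, n = 3 each; edgeR, adjusted p = 0.509). Dedd2 had a log2 fold change of -0.35 ± 0.17 (SE, adjusted p = 0.630), and Lgals9 and Rbx1 were the most abundant, at 89.2 and 74.3 CPM per kb with TNFa and 101 and 70.9 with PBS. Of 11 tested pyroptosis genes, 7 were higher and 4 lower with a median of 0.16. At an unadjusted p under 0.05 in edgeR, Casp1 and Casp4 were higher and Nlrp1b, named after its values were seen, was lower. Over all tested genes, 3.68% were higher and 4.63% lower at that level, and DESeq2 called 1.4%. Gsdmd, the main pore-forming gasdermin, stood at 33.2 CPM per kb with TNFa and 29.7 with PBS (adjusted p = 0.830).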

How the data were processed

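RNA was sequenced in 6 libraries from cultured, sorted mouse lung ILC2s, with 10 ng of RNA as input per the labels' protocols. The deposited values are estimated counts for each gene from Partek's expectation-maximization method, per the file name. That method shares reads among the genes they match, and the authors did not scale the values between libraries. The submitters' processing notes name CASAVA 1.8.2, STAR, Partek and mm10 without roles. The annotation release was not stated in these notes, and the table held 0 further columns of per-library values.

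Estimated counts were rounded to whole numbers, filtered with filterByExpr (minimum count 10, minimum total 15), scaled by TMM and compared with the robust quasi-likelihood test of edgeR 4.0.16 in R 4.3.3 over all 15719 genes, adjusted by Benjamini-Hochberg at 0.05. The script was tested on simulated data. SE values derive from the fitted change and its F statistic. CPM values are TMM-scaled. Exon lengths came from GENCODE M21, of the same build, for 21680 of 21825 genes, and promoter windows from RefSeq (GRCm38.p6) for 8 of the 9 genes. Totals of 25089415 to 32487004 counts make counting error small at 10 CPM or more, so the spread between 3 libraries limits precision.

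The members, the gene lists, the marker lists and the alternatives were chosen with earlier results of these data known. The rule for naming genes took all 9 members. From each related list it took genes past the threshold, the 2 smallest p-values at 10 CPM or more and the 2 highest levels per kb. From each marker list it took the 2 highest genes, and 0 listed markers in the table were at 0 in every library. Thy1, Klrb1c, Eomes, Ncr1, Icos and the other 6 lower ILC2 markers without overlap were added after their values were seen, and the summed level of 1 marker list is not reported here. Alternatives were size factors as in DESeq2 (RLE), DESeq2 1.42.0, no filter, a filter at a mean of 5 CPM and leaving out each library.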

Additional observations from a re-analysis of the deposited data

How the results depend on the processing

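The direction of each of the 9 genes was the same in all 10 alternatives, although without 1 library some fitted changes came close to 0 (Casp8 -0.0084, Fadd 0.011 and Mlkl 0.038 on the log2 scale at their nearest). The 16 genes called over the whole table became 220 in DESeq2, 3 without a filter, 25 with a filter at a mean of 5 CPM and 1 to 67 when a library was left out, the 67 being without TNFa replicate 5. The count of members called, 0, became 1 in DESeq2, 1 with the filter at 5 CPM and 0 to 1 when a library was left out, and Ripk3 was that gene each time. The count of members whose groups did not overlap, 1, became 2 with the filter at 5 CPM and 2 to 4 when a library was left out (4 without PBS replicate 2 and 4 without TNFa replicate 5), where 21.5% to 27.3% of all tested genes had no overlap. The count at an unadjusted p under 0.05, 1, became 2 in DESeq2, 2 with the filter at 5 CPM and 1 to 3 when a library was left out. Of all tested genes, 9.47% lay under that level in DESeq2 and 5.22% to 10.8% when a library was left out, the 10.8% being without TNFa replicate 5. With the filter at 5 CPM, the shares of all tested genes without overlap and under that level were not computed. The member counts of that setting therefore have no background to be read against. The cause of the shifts in counts between settings was not tested. The number of genes tested also differed between settings. It was 9943 with the filter at 5 CPM, 21825 without a filter and 16294 to 16562 when a library was left out, against 15719 in the main fit and in DESeq2. No paired analysis was possible because the groups share no replicate numbers. Fasl, at under 30 counts in every library, had TNFa libraries spread from 0 to 29 counts, and with the filter at 5 CPM it gave no value.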
